A study of Mus musculus with 8 samples.

Results

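The transcripts of 36 genes that copy DNA and divide cells were followed in mouse embryos of embryonic day 7.5, in the epiblast region, in wild-type embryos and in embryos that lack Foxa2, a forkhead transcription factor of the organizer and endoderm. The genes were chosen by name and function, though earlier results of these data were known. They comprise 9 genes of replication licensing and the replicative helicase, 6 of DNA synthesis and nucleotide supply, 11 cyclins, cyclin-dependent kinases and E2f1, and 10 of mitosis. A gene was measured where an array probe set (a group of short probes for 1 transcript) was annotated to it alone. This gave 32 of the 36 on the U74Av2 array and 35 on the MOE430v2 array. Ccnb1 was measured on neither, and Gins1, Tyms and Bub1b had no such probe set on U74Av2. The only Mcm6 probe set on U74Av2 was among the dim ones left out of the tests. So 31 members were tested on U74Av2 (41 probe sets), 35 on MOE430v2 (75 probe sets) and 31 on both, out of 6410, 14180 and 5933 genes in all.

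There were 4 pools of embryos, all between the mid-streak and the head-fold stage, with the sexes mixed. The extra-embryonic region was cut away, but visceral endoderm on the embryo proper was kept. Wild-type pools 1 and 2 held 53 and 50 embryos from timed matings of ICR mice. Foxa2 null pools 1 and 2 held 53 and 48 embryos that were grown from Foxa2 null embryonic stem cells by tetraploid complementation, in which a wild-type tetraploid host supplies the visceral endoderm and other extra-embryonic tissues. The strain is labelled ICR for the null pools on MOE430v2 and is not given on U74Av2, and genotype cannot be told apart from the origin of the embryos. By the study's staging, wild-type pool 2 held fewer head-fold embryos than the other pools. The RNA of each pool was put on 1 array of each type. The 8 arrays therefore hold 2 pools per genotype, and the second platform repeats the same extracts. A pool joins many embryos, so p-values rest on the spread between pools, shared in part across genes, and not on that between embryos.

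Cells copy their genome once per division. In G1 the origin recognition complex and Cdc6 load rings of Mcm2-7 onto DNA, and D-type cyclins with Cdk4 release E2F factors that transcribe genes for the coming S phase. Cdc45 and the GINS complex then turn the rings into active helicases, polymerases copy the strands on the Pcna clamp, and cyclin B with Cdk1 drives entry into mitosis, where Aurora and Polo kinases and the spindle checkpoint govern chromosome separation. The epiblast at gastrulation is known for very fast division.

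Promoters of such genes often carry short shared motifs. The 150 bases before an annotated start site of 6 members are shown because they hold the motifs in different combinations. The sequences are from RefSeq on GRCm38.p6, 5′ to 3′ on the gene's strand, with capitals for E2F matches (TTCCCGC or TTCGCGC or TTGCCGC or TTGGCGC), for the cell cycle homology region, CHR (TTTGAA), and for CCAAT boxes (CCAAT), each on either strand. In Mcm6 a forward and a reverse E2F match share letters at each of 2 places.
Mcm6, chr1:128359706-128359855 (- strand): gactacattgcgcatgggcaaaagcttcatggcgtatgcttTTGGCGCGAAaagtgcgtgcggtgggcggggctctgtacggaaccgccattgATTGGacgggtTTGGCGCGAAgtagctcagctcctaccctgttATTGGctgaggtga
Cdc6, chr11:98908001-98908150 (+ strand): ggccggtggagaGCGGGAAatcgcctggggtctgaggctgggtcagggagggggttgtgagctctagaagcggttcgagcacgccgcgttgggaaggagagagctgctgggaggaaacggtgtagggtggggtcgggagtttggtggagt
Rrm1, chr7:102441545-102441694 (+ strand): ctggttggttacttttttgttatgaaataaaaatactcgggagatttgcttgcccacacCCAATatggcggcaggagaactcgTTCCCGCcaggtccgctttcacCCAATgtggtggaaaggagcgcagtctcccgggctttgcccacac
Cdk1, chr10:69352913-69353062 (- strand): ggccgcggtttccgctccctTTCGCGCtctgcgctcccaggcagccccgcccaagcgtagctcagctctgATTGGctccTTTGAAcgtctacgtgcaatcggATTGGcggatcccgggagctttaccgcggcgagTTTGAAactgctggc
Cdc20, chr4:118437344-118437493 (- strand): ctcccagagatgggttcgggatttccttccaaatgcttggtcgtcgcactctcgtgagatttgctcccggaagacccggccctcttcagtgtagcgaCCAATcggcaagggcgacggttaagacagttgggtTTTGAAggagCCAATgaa
Top2a, chr11:99024190-99024339 (- strand): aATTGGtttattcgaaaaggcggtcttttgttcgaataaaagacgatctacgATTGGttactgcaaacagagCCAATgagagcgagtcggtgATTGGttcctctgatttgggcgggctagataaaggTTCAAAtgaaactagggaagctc

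An E2F match stood in Mcm6 at 109 and 46 bases before the start, in Cdc6 at 138, in Rrm1 at 67 and in Cdk1 at 130. For Cdc6 the promoter table uses a start inside the gene, which spans chr11:98907709-98923942. The Cdc6 stretch shown therefore does not lie upstream of the whole gene. CHR matches stood at 71 and 15 bases before the start in Cdk1, at 18 in Cdc20 and at 23 in Top2a. Promoters of 250 bases before to 50 after the start were found for 30 members (32 promoters). An E2F match was in 14 of these 32 (43.8%), against 9.57% of all 32851 promoters, a CHR match in 10 (31.2%) against 17.9%, and a CCAAT box in 24 (75%) against 37.4%. Of the 8 licensing and helicase promoters 6 held E2F and 2 held CHR, whereas of the 9 mitosis promoters 1 held E2F and 6 held CHR. These matches describe the letters only. Mcm4, Gins1, Ccnd1, Ccnd2, Ccna2 and Aurkb had no entry in the promoter table used here.

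At their brightest probe sets, most of the replication and mitosis genes differed little between wild-type and Foxa2 null pools. Averaged over both platforms, the median null-to-wild-type log2 ratio was 0.01 over the 31 members and -0.01 over all 5933 genes, with 16 members above 0 and 15 below. Only the cyclin D2 gene Ccnd2 differed by 1.5-fold or more between genotype means on this average, against 7.13% of all genes. On U74Av2 alone 2 of 31 members did, Ccnd2 and E2f1, against 717 of 6410 genes. On MOE430v2 alone none of the 35 did, against 2318 of 14180 genes. None of the members passed an adjusted p under 0.05 by limma with Benjamini-Hochberg adjustment. The counts were 0 of 41 probe sets on U74Av2 (0.276% of all probe sets passed), 0 of 75 on MOE430v2 (0.435%) and 0 of 31 genes over both platforms (2.41% of genes). At an unadjusted p under 0.05, 2 member probe sets were above and 2 below wild-type on U74Av2 (5.01% of all probe sets in each direction), 7 above and 5 below on MOE430v2 (6.03% and 6.07%). Over both platforms 3 genes were above (Rrm1, Ccnd2 and Mki67) and 1 below (Cdc6), against 7.42% and 7.84% of all genes.

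The intervals give the range of differences left by limma, which draws each gene's variance towards that of genes of like signal. They therefore rest only partly on a gene's own pools. Ccnd2 had standard deviations of 0.49 (wild-type) and 0.66 (null) between pools and a standard error of 0.29. For Aurkb these were 0.03, 0.01 and 0.12. For 29 of the 31 members the 95% interval of the ratio over both platforms lay wholly within 1.5-fold in either direction, all but Ccnd2 and E2f1, and for 30 it lay within 2-fold. The same held for 3423 of the 5933 genes at 1.5-fold. The median standard error was 0.11 for members and 0.15 for all genes on the log2 scale. Fewer cells of a type and less RNA per cell cannot be told apart in pooled tissue.

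**Figure D1:**
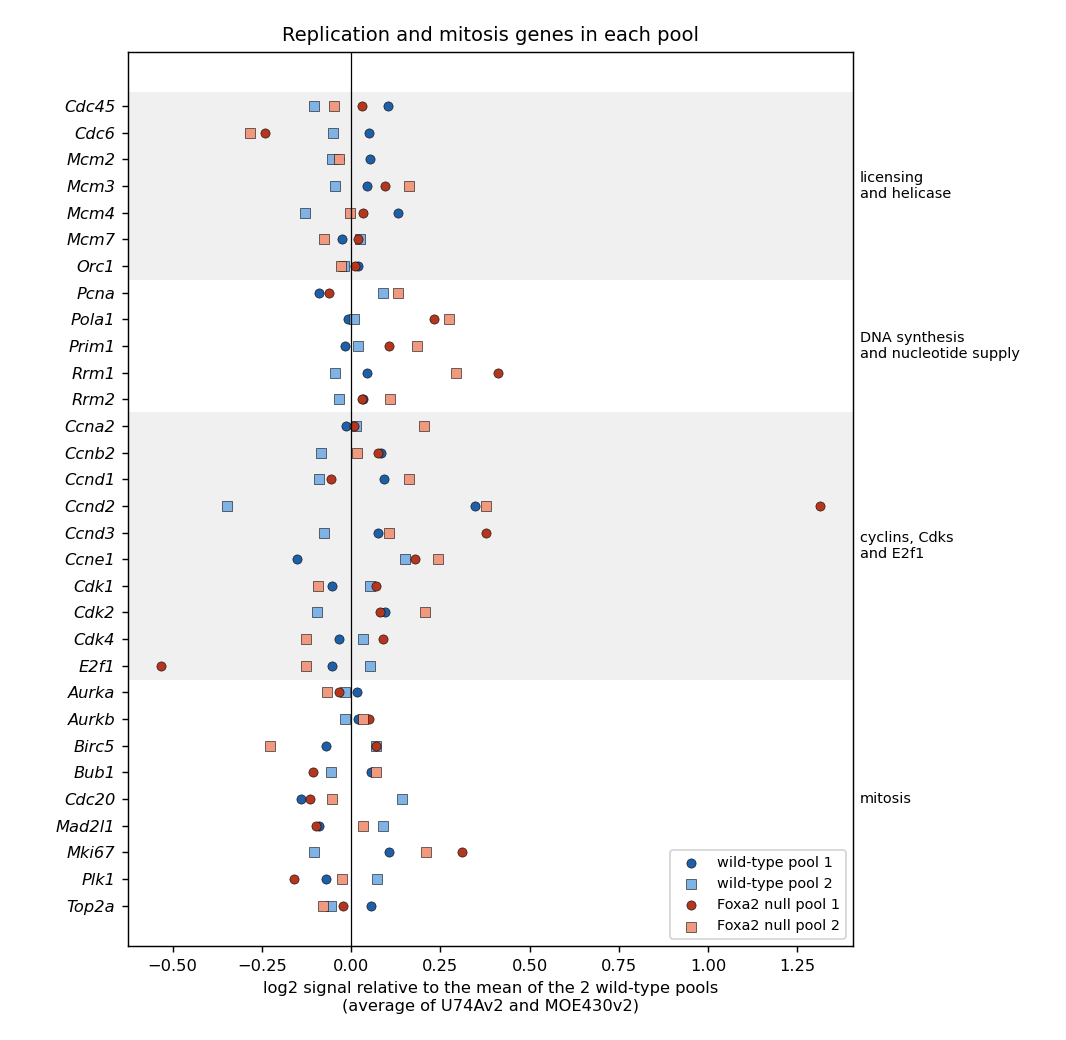
Log2 signal of each member in each of the 4 pools (horizontal axis, average of both platforms) relative to the mean of the 2 wild-type pools, with genes ordered by role on the vertical axis. Most points lie close to the zero line, Ccnd2 reaches far to the right in Foxa2 null pool 1, and Rrm1 and Pola1 have both null pools to the right of both wild-type pools.

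Null and wild-type pools did not overlap for 12 of the 31 members over both platforms. In 9 both null pools were above both wild-type pools (22.1% of all genes), and in 3, Cdc6, E2f1 and Aurka, both were below (23.5%). On U74Av2 alone the counts were 8 above and 3 below of 31 (19.3% and 21.1% of genes), and on MOE430v2 10 above and 7 below of 35 (21.7% and 23.7%). With 2 pools a side, the smallest p of an exact permutation test is 0.333. At the brightest tested probe set of each gene, MOE430v2 signals of the members in the wild-type pools ran from 279, for the thymidylate synthase gene Tyms, to 23579, for the clamp gene Pcna.

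Origins are licensed by Orc1, the large subunit of the origin recognition complex, and Cdc6, which loads the Mcm rings with it. Cdc6 had log2 signals on MOE430v2 of 10.90 and 10.75 in the wild-type and 10.36 and 10.47 in the Foxa2 null pools, and on U74Av2 of 8.95 and 8.90 against 8.91 and 8.71. Both null pools lay below both wild-type pools on MOE430v2, and on U74Av2 null pool 1 lay between the wild-type pools. The log2 ratio was -0.41 on MOE430v2 (standard error 0.13), -0.11 on U74Av2 (0.15) and -0.26 over both (0.12, adjusted p = 0.316 by limma). Orc1 had opposite signs on the platforms, -0.18 on U74Av2 and 0.16 on MOE430v2, and -0.01 over both.

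The Mcm ring is the core of the replicative helicase. Over both platforms the log2 ratios of the 4 member subunits measured on each ran from -0.03 (Mcm2) through -0.03 (Mcm7) and 0.01 (Mcm4) to 0.13 (Mcm3). Mcm3 had log2 signals on MOE430v2 of 12.98 and 12.97 in wild-type and 13.12 and 13.07 in null pools, and on U74Av2 of 10.29 and 10.12 against 10.25 and 10.43. The Mcm3 null pools were higher on MOE430v2 and overlapped with wild-type on U74Av2, with an interval over both of -0.08 to 0.34. All 7 tested Mcm3 probe sets were above 0, and the dim 1420029_at read 0.92 (standard error 0.27, adjusted p = 0.227), from 8.12 and 8.56 to 9.58 and 8.93. Mcm7 lay between 14.38 and 14.42 in all 4 pools on MOE430v2.

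Mcm6, measured on MOE430v2 alone, was the subunit with the largest ratio below 0. Its brighter probe set (1416251_at) had log2 signals of 12.89 and 12.86 in wild-type and 12.58 and 12.51 in Foxa2 null pools, so the genotypes did not overlap. This gave a log2 ratio of -0.33, with a standard error of 0.09 and an adjusted p of 0.181 by limma. The other Mcm6 probe set (1438852_x_at) read 11.83 and 11.90 against 11.88 and 12.06, a ratio of 0.11 (standard error 0.11), so the 2 probe sets of this gene differed in sign. The helicase cofactors Cdc45 and Gins1 had ratios of -0.01 over both platforms and 0.05 on MOE430v2, though a second, dimmer probe set of each on MOE430v2 read -0.62 and -0.67.

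**Figure D2:**
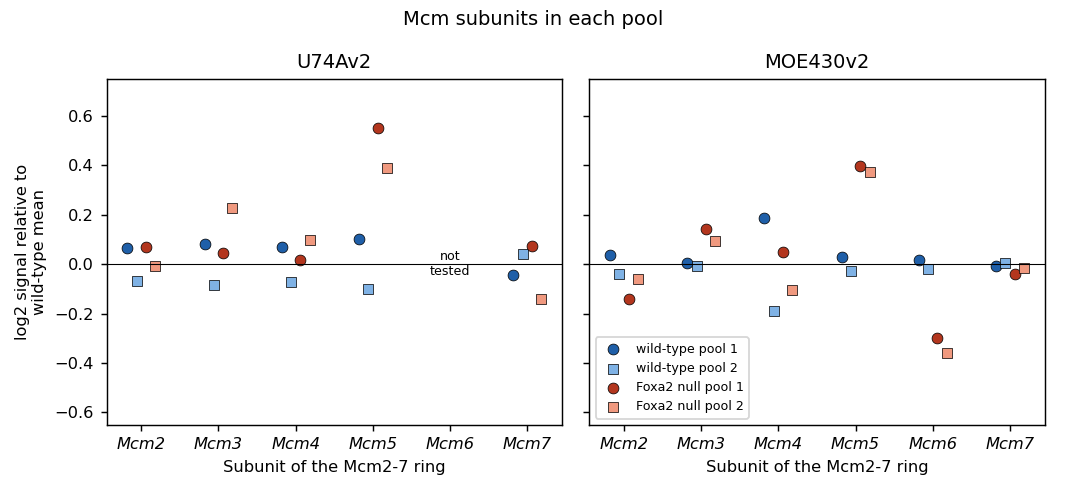
Log2 signal of the 6 Mcm2-7 subunits in each pool (vertical axis, relative to the wild-type mean) on U74Av2 and MOE430v2, for the brightest probe set of each gene. Mcm5, which is no member and lies on chromosome 8, has both null pools above 0.3 on both platforms, Mcm6 has both null pools near -0.3 on MOE430v2, and the other subunits scatter around 0.

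Of the 6 genes of DNA synthesis none passed the threshold. All 5 measured on both platforms had a positive ratio over both, with a median of 0.15, where 51.7% of all genes were below 0. On MOE430v2 alone, where Tyms was also measured, 4 of 6 were above 0, with a median of 0.06. Rrm1 encodes the large subunit of ribonucleotide reductase, which makes deoxynucleotides. Its log2 signals on MOE430v2 were 11.93 and 12.11 in wild-type and 12.52 and 12.39 in Foxa2 null pools, and on U74Av2 9.57 and 9.21 against 9.70 and 9.60. Both null pools were above both wild-type pools on each platform. The log2 ratio was 0.44 on MOE430v2 (standard error 0.11), 0.27 on U74Av2 (0.16) and 0.35 over both (0.10, adjusted p = 0.125 by limma), with an interval of 0.12 to 0.58. Without wild-type pool 2 the U74Av2 ratio was 0.09, and without wild-type pool 1 it was 0.45. Of its other MOE430v2 probe sets, 1 read 0.46 and 1, which was dim, read -0.09.

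Pola1, the catalytic subunit of the polymerase that starts new strands, had log2 signals on MOE430v2 of 9.88 and 9.98 in wild-type and 10.09 and 10.23 in null pools, and on U74Av2 of 7.55 and 7.48 against 7.82 and 7.77. Its genotypes did not overlap on either platform. The ratio over both was 0.25 (standard error 0.13, adjusted p = 0.395 by limma). The primase subunit Prim1 was at 0.15 over both platforms. Rrm2, the small reductase subunit, was at 0.22 on U74Av2 and -0.09 at its brightest MOE430v2 probe set, and at 0.07 over both. Pcna, the sliding clamp, had log2 signals on MOE430v2 of 14.35 and 14.45 in wild-type and 14.43 and 14.50 in null pools, and a ratio over both platforms of 0.04 with an interval of -0.19 to 0.26. The pools of each genotype overlapped for Pcna. Tyms, measured on MOE430v2 only, was at -0.25 with a standard error of 0.26.

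**Figure D3:**
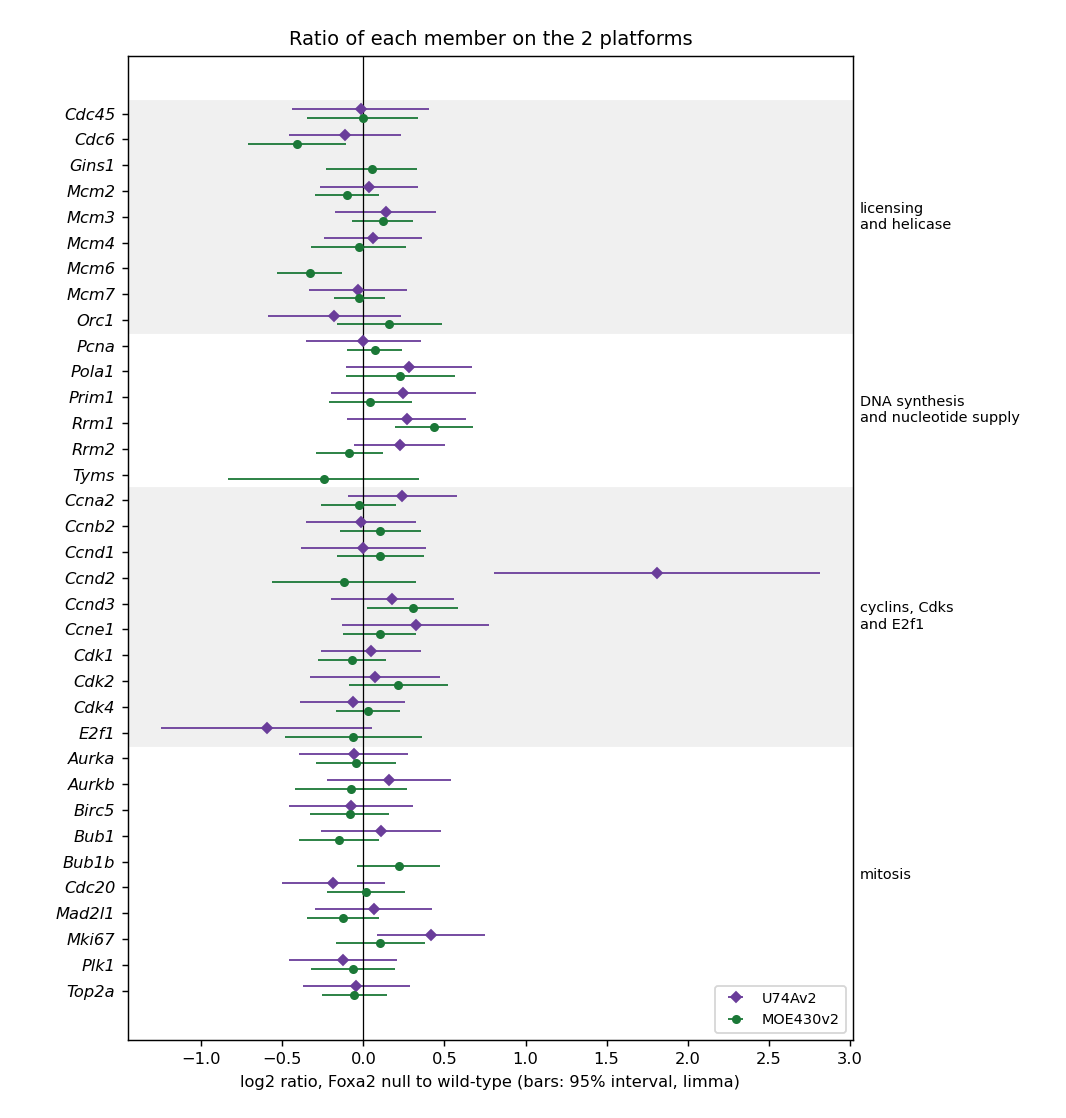
Null-to-wild-type log2 ratio (horizontal axis) with its 95% interval for each of the 35 members measured, on U74Av2 (diamonds) and MOE430v2 (circles), for the brightest probe set of each gene. Most intervals span 0 on both platforms, and the Ccnd2 intervals of the platforms lie apart.

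The D-type cyclins link growth signals to the cell cycle through Cdk4. Ccnd1 was at 0.00 on U74Av2 and 0.10 on MOE430v2, with a ratio over both of 0.05 and an interval of -0.22 to 0.33. Ccnd3 had log2 signals on MOE430v2 of 11.41 and 11.24 in wild-type and 11.74 and 11.52 in Foxa2 null pools, and on U74Av2 of 8.90 and 8.76 against 9.17 and 8.85. Both Ccnd3 null pools were above both wild-type pools on MOE430v2 and overlapped with them on U74Av2, with a ratio over both of 0.24 (standard error 0.13, adjusted p = 0.41 by limma).

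Ccnd2 had the largest ratio of the 31 members over both platforms, and its value depended on the probe set. On U74Av2 its single probe set (97504_at) read log2 signals of 6.69 and 5.88 in wild-type and 8.81 and 7.37 in Foxa2 null pools, which differ by 1.81 (standard error 0.44) with an adjusted p of 0.177 by limma. The wild-type signals there were low, at linear values of 102.9 and 58.9, where the array medians were 50.9 and 52.8. With an offset added before log2 the ratio was 1.35 on U74Av2 and 0.62 over both platforms. On MOE430v2 the probe set 1448229_s_at read 9.13 and 8.99 against 10.79 and 9.97, which differ by 1.32 (standard error 0.25) with an adjusted p of 0.0666. Both null pools were above both wild-type pools at these probe sets, and null pool 1 stood highest. Another, the dim 1416123_at, read 6.92 and 6.83 against 8.45 and 7.16, a ratio of 0.93. The other 5 MOE430v2 probe sets read ratios of 0.29, 0.29, 0.23, -0.12 and -0.20. Among them is 1434745_at, the brightest, at 12.32 and 11.74 in wild-type and 12.12 and 11.70 in null pools. The 8 probe sets thus spanned 2.01 on the log2 scale, the widest span of any member, and the log2 ratio over both platforms of 0.85 (standard error 0.29, adjusted p = 0.179) averages 1.81 and -0.12. Which part of the transcript each Ccnd2 probe set reads is not given in the sources used here. At all 8, pool 1 of each genotype was above pool 2. Without Foxa2 null pool 2 the ratio passed the threshold at 2.53 on U74Av2 (adjusted p = 0.00941), 1.73 at 1448229_s_at (0.00445) and 1.31 over both (1.1e-05), fits in which the spread between null pools is not measured. Without Foxa2 null pool 1 it was 1.09 on U74Av2 and 0.38 over both (adjusted p = 0.361 and 0.389 by limma), without wild-type pool 2 it was 1.41 and 0.50, and without wild-type pool 1 it was 2.21 and 1.19.

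**Figure D4:**
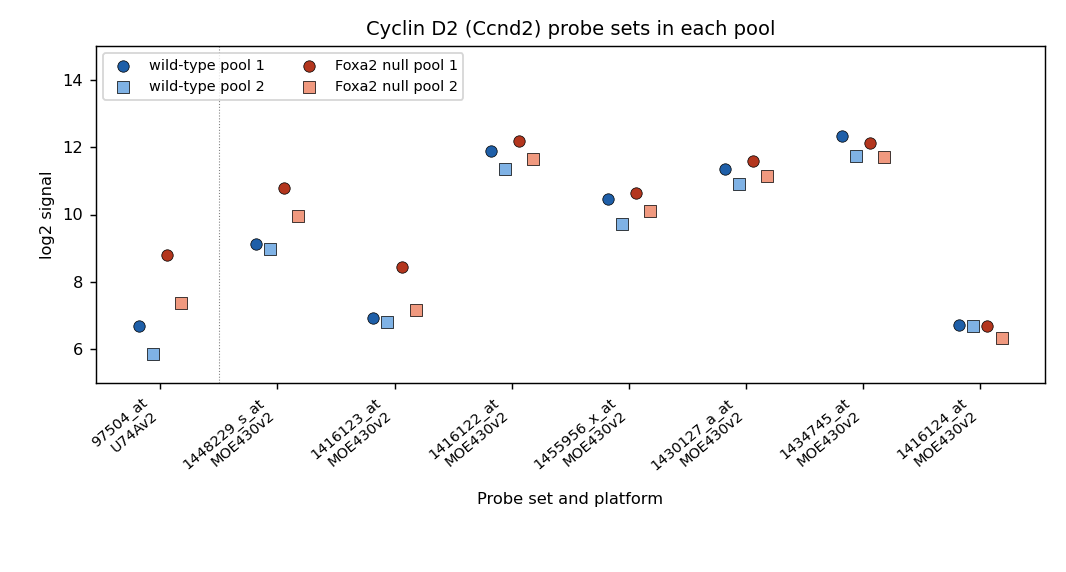
Log2 signal of the 8 tested Ccnd2 probe sets (vertical axis) in each pool, with probe sets ordered within a platform by their null-to-wild-type ratio. The null pools stand above the wild-type pools at 97504_at, 1448229_s_at and 1416123_at and overlap with them at the bright probe sets.

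Later cyclins and their kinases had log2 ratios between -0.02 and 0.21 over both platforms. Ccne1, which acts at S phase entry, was at 0.21, and both its null pools were above both wild-type pools on each platform (0.32 on U74Av2 and 0.10 on MOE430v2, standard errors 0.20 and 0.10). The ratios were 0.11 for Ccna2, which acts in S and G2, and 0.04 for the mitotic cyclin Ccnb2. The kinases Cdk1, Cdk2 and Cdk4 were at -0.01, 0.14 and -0.02. Cdk1 overlapped between the genotypes, at 12.82 and 12.90 in wild-type and 12.86 and 12.73 in null pools on MOE430v2. A dim Cdk2 probe set on U74Av2 (94411_at) read -1.17, while the other Cdk2 probe sets read 0.07 and 0.21. E2f1, a transcription factor of S phase genes, had log2 signals on U74Av2 of 5.97 and 6.02 in wild-type and 5.17 and 5.64 in Foxa2 null pools, and on MOE430v2 of 9.46 and 9.63 against 9.31 and 9.66. Its genotypes were apart on U74Av2, where its signal was low, and overlapped on MOE430v2. The ratios were -0.60 and -0.06, and -0.33 over both (standard error 0.19, adjusted p = 0.483 by limma), with all 4 tested E2f1 probe sets below 0. Without Foxa2 null pool 1 the ratio over both was -0.13, and without null pool 2 it was -0.53.

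Mitotic genes had a median log2 ratio of -0.05 over both platforms (9 genes, 7 below 0, where 51.7% of all genes were below 0). Mki67, the Ki-67 antigen that coats mitotic chromosomes and marks cycling cells, had log2 signals on U74Av2 of 8.99 and 8.82 in wild-type and 9.31 and 9.34 in Foxa2 null pools, and on MOE430v2 of 12.43 and 12.18 against 12.53 and 12.29. The Mki67 genotypes were apart on U74Av2 and overlapped on MOE430v2. Its ratio was 0.42 on U74Av2 (standard error 0.15), 0.10 on MOE430v2 (0.12) and 0.26 over both (0.11, adjusted p = 0.307 by limma), and a dim second probe set on U74Av2 read -0.32. Leaving out 1 wild-type pool moved the Mki67 ratio over both to 0.16 (pool 2 left out) or 0.36 (pool 1). Top2a, which untangles sister chromosomes, had log2 signals on MOE430v2 of 13.12 and 13.00 in wild-type and 12.98 and 13.03 in null pools, and a ratio over both of -0.05 with an interval of -0.27 to 0.17. The Top2a null pools overlapped with wild-type on both platforms.

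Plk1, the Polo kinase of mitotic entry and exit, had the largest ratio below 0 among mitotic genes over both platforms, -0.09 (standard error 0.11, adjusted p = 0.759 by limma). Its log2 signals on MOE430v2 were 11.81 and 12.06 in wild-type and 11.87 and 11.87 in Foxa2 null pools, so the null pools lay between the wild-type pools. Leaving out 1 pool moved the ratio over both between -0.17 and -0.02. A U74Av2 probe set of Plk1 that was not its brightest (161292_f_at) read linear signals of 469.1 and 467.5 in wild-type and 255.9 and 314.5 in null pools, which is -0.72 in log2, with a standard error of 0.17 and an adjusted p of 0.163, whereas the other U74Av2 probe sets read -0.12 and -0.10. The Aurora kinases Aurka and Aurkb were at -0.05 and 0.04 over both platforms, though a dimmer Aurkb probe set on MOE430v2 (1451246_s_at) read -0.40 with both null pools below both wild-type pools, and survivin, Birc5, which works with Aurkb, at -0.08. Of the spindle checkpoint, Mad2l1 was at -0.03, Bub1 at -0.02, and Bub1b, on MOE430v2 only, at 0.22. The 5 Bub1 probe sets ran from -0.96 to 0.50. Cdc20, which activates the anaphase-promoting complex, was at -0.08.

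The platforms gave ratios of the same sign for 18 of the 31 members (58.1%), and for 63.4% of all 5933 genes. The median gap between the platforms' ratios was 0.13 for members and 0.20 for all genes. The correlation of the ratios across genes was 0.05 for the 31 members (Spearman's rho 0.20) and 0.40 for all genes (0.37), as a description of the same 4 extracts read on both platforms.

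Taken as a median over the members, in which opposite deviations cancel, pools of a genotype also differed little. Single genes could differ more. Over both platforms Ccnd2 was at 9.50 and 8.81 in the wild-type pools and at 10.47 and 9.53 in the Foxa2 null pools. The median deviation of the 31 members from the 4-pool mean was -0.02 and -0.04 in wild-type pools 1 and 2 and 0.03 and 0.01 in Foxa2 null pools 1 and 2, on the log2 scale over both platforms. Wild-type pool 2, with fewer head-fold embryos, was above wild-type pool 1 in 13 of 31 members and in 3053 of all 5933 genes. By role it was above in 1 of 7 licensing and helicase genes (median difference -0.10), 3 of 5 DNA synthesis genes (0.02), 5 of 10 cyclins, kinases and E2f1 (-0.06) and 4 of 9 mitotic genes (-0.03).

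Markers of other tissues were read beside the members, and at the brightest probe set of each none passed the threshold by limma on either platform or over both. The samples were labelled as epiblast, and by the study's methods visceral endoderm was kept with the embryo proper. Visceral endoderm transcripts were abundant in every pool. The study reports that null embryos do not displace this layer and look enriched for its markers. The summed MOE430v2 signal of the 11 tested visceral endoderm markers (of 12 listed) was 62370 and 70320 for wild-type against 88740 and 71060 for Foxa2 null, with all 11 above 0 in log2 ratio (median 0.38). On U74Av2 the sums were 7098 and 6927 against 10560 and 7003, with 8 of 9 above 0 (median 0.48) and Afp, the serum protein of this tissue, at -0.48 there and 0.43 on MOE430v2. Wild-type pool 2 and null pool 2 were close in these sums on both platforms. The marker sums and ratios that follow are from MOE430v2. For 3 tested trophoblast and extra-embryonic ectoderm markers (of 8) the sum was 5483 and 4937 in wild-type and 7981 and 7619 in null pools. All 3 were above 0 in log2 ratio. The 5 epiblast markers summed to 6352 and 8552 against 7830 and 10840, which overlap. By gene, 4 were above 0 and 1 below in log2 ratio (median 0.67). In 3 of them, Utf1 (1.06), Nanog (0.85) and Fgf5 (0.67), both null pools were above both wild-type pools. Otx2 was at -0.35 and Pou5f1 at 0.04, and for both the genotypes overlapped. The 5 tested streak and mesoderm markers (of 6) summed to 3527 and 5004 against 3845 and 7175, with Eomes at 1.34 and Tbx6 at -0.70. The listed marker T was not among those tested, and the paper reports T as reduced in null embryos. For 3 tested primitive blood markers (of 5) the sums were 328.4 and 1314 against 1485 and 311.4. The 5 parietal endoderm markers had a median log2 ratio of -0.50 on MOE430v2, and 3 tested decidua markers (of 4) summed to 394.6 and 349.9 against 192.4 and 276.6. None of these markers had a signal of 0. Foxa2 itself read log2 signals of 7.37 and 8.08 in wild-type and 6.39 and 6.55 in null pools on U74Av2. On MOE430v2 it read 9.62 and 10.17 against 8.96 and 9.06, so it was lower in both null pools. Whether its probe sets lie in the deleted part of the gene is not given in the sources used here. The null pools also held wild-type visceral endoderm, and the paper describes Foxa2 expression in the anterior part of that tissue. The share of that tissue in the Foxa2 signal was not tested. The part of these tissue differences in the members' ratios was not tested.

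A wider list of replication, cell cycle control and mitosis genes that are no members gave 4 calls. On U74Av2 none of 78 genes passed the threshold by limma (0.218% of all genes passed), on MOE430v2 2 of 109 passed (0.458%), both higher, and over both platforms 2 of 78 passed (2.41%), 1 in each direction. At an unadjusted p under 0.05, U74Av2 had 8 genes above and 3 below wild-type (5.13% and 4.98% of all genes), and MOE430v2 had 18 above and 3 below (6.27% and 7%). Over both platforms 15 were above and 2 below (7.42% and 7.84%). The median log2 ratio of the list over both was 0.07. Ncapd2, a subunit of condensin, rose at its brighter MOE430v2 probe set (1423847_at), from log2 signals of 11.04 and 11.12 in wild-type to 12.28 and 12.43 in Foxa2 null pools, a ratio of 1.27 with standard error 0.11 and adjusted p = 0.0038 by limma. Its other probe set read 0.71. Kif20a, a kinesin of cytokinesis, fell by 0.47 on the log2 scale over both platforms (standard error 0.10, adjusted p = 0.0469), with -0.70 on U74Av2 and -0.24 on MOE430v2. Without wild-type pool 1, wild-type pool 2 or Foxa2 null pool 1 the Kif20a call was lost (adjusted p = 0.16, 0.161 and 0.0759).

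The other genes that passed, Mcm5 and Tfdp1, both lie on chromosome 8. Mcm5, the sixth subunit of the Mcm ring, rose by 0.43 over both platforms (standard error 0.09, adjusted p = 0.0424 by limma) at its brightest probe sets. Taking the median over its probe sets, the ratio was 0.23 and the call was lost (adjusted p = 0.548), with dim probe sets at -0.47 on U74Av2 and -0.28 on MOE430v2 and another on MOE430v2 at 0.45. Its log2 signals were 11.04 and 10.84 in wild-type and 11.49 and 11.33 in Foxa2 null pools on U74Av2, and 13.39 and 13.33 against 13.76 and 13.73 on MOE430v2. Both null pools were above both wild-type pools on each platform. The difference between Mcm5 and the other subunits was not tested. Tfdp1, the partner protein of E2F factors, rose on MOE430v2 by 0.60 on the log2 scale (standard error 0.09, adjusted p = 0.0342), from 12.22 and 12.14 to 12.79 and 12.76. The Mcm5 call was lost without wild-type pool 1, wild-type pool 2 or Foxa2 null pool 1 (adjusted p = 0.0714, 0.177 and 0.0833), and the Tfdp1 call without any 1 of the 4 pools (0.057 to 0.16).

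No member lies on chromosome 8. Over both platforms the 5 pathway genes there had a median log2 ratio of 0.43, with the licensing factor Cdt1 at 0.43 (adjusted p = 0.0537), Tfdp1 at 0.44, the origin recognition subunit Orc6 at 0.37 and the GINS subunit Gins2 at -0.01. The 104 members and pathway genes on other chromosomes had a median of 0.03. All 320 genes of chromosome 8 measured on both platforms had a median of 0.37. On MOE430v2 the medians were 0.43 (10 pathway genes there), 0.01 (134 elsewhere) and 0.35 (739 genes of the chromosome). The part of chromosome 8 in the calls of Mcm5 and Tfdp1 was not tested.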

How the data were processed

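Groups follow the genotype in the labels of the 8 arrays. The authors deposited MAS5 signals, which summarise each probe set as a linear intensity. Each array had been scaled to a common target: leaving out the top and bottom 2% of values, the mean is 150 for U74Av2 and 500 for MOE430v2, whereas the methods name another target for U74Av2. The log2 scale was used throughout, in R 4.3.3 with the data.table package, version 1.17.8. U74Av2 was used as deposited, and MOE430v2 was normalized by cyclic loess, since the methods describe a loess step. Control probe sets and the dimmest 30% by mean log2 signal were left out, which left 8695 of 12422 and 31526 of 45037 probe sets.

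Foxa2 null was compared with wild-type by limma 3.58.1 (eBayes, trend = TRUE). Tests were two-sided and adjusted by Benjamini-Hochberg over all probe sets. Over both platforms, log2 values of the brightest single-gene probe set were centred per gene and averaged per extract, so n stayed 2 pools. The test was checked on simulated data. The number of pools, 2 per genotype, limits the precision. Chromosomes and promoters are from RefSeq tables of GRCm38.p6.

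The members and all lists were chosen with earlier results of these data known. Pool values are given for the 2 members with the largest ratio in each role, Ccnd3, Mcm6, Pcna, Cdk1 and Top2a. At the brightest probe sets of Plk1, Pcna, Cdk1 and Top2a they are for MOE430v2 only. Ccnd1 and the other member Mcm subunits are given by ratio or range. Pathway genes are named where they passed, or where they lie on chromosome 8 and were measured on both platforms. Probe sets of members that disagree with their brightest probe set were named after their values were seen. Alternatives were the replicate block, each pool left out, another loess choice, median centring, an offset, no filter, no trend and the median over probe sets.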

Additional observations from a re-analysis of the deposited data

How the results depend on the processing

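Alternatives changed the number of members called from 0 only as follows. With the replicate number as a block, 2 probe sets passed on U74Av2 (Ccnd2 and Plk1), 5 on MOE430v2 (Rrm1 at 2, Ccnd2, Mcm3 and Mcm6) and 2 genes over both platforms (Ccnd2 and Rrm1), while this fit called 3.36%, 5.21% and 8.46% of all features. The labels and methods do not say whether same-numbered pools were collected or handled together. Their deviations correlated at 0.111 on U74Av2 and 0.0851 on MOE430v2. Leaving out 1 pool gave 0 to 1 on each platform and over both, the 1 being Ccnd2 without Foxa2 null pool 2. An offset before log2 gave 1 on MOE430v2 (Ccnd2, 1.18, adjusted p = 0.0483). Member medians ranged, leaving out 1 pool, from 0.0176 to 0.0993 on U74Av2, -0.0181 to 0.0366 on MOE430v2 and 0.0222 to 0.059 over both, and were 0.0868 and 0.0407 (U74Av2, both) with median centring and -0.00876 (both) with the median over probe sets. On MOE430v2 the brightest probe sets of Ccnd2 (-0.41 to 0.175) and Mki67 (-0.0169 to 0.225) changed sign with 1 pool left out. The causes were not tested. Limma without a trend called 0, 0 and 2 features in all, and the calls of Mcm5, Kif20a, Tfdp1 and Ncapd2 were lost there (adjusted p from 0.223 to 0.477). Ncapd2 passed in each of the other fits, whereas Mcm5, Kif20a and Tfdp1 also failed without the filter and with median centring. Mcm5 and Tfdp1 failed under the other loess choice (0.053 and 0.0662), and Mcm5 (0.23, adjusted p = 0.548) and Kif20a (-0.35, 0.161) with the median over probe sets. Of the ratios of single genes under alternatives, 185 kept their sign and side of the threshold, 7 passed it newly, 24 no longer passed and 4 changed sign.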
